A study of Mus musculus with 38 samples.

Results

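The refeeding response of mouse liver was followed in animals without the insulin receptor in hepatocytes. These mice, called LIRKO for liver insulin receptor knockout, carry floxed insulin receptor alleles that albumin-driven Cre deletes in hepatocytes, so that Kupffer, endothelial, stellate and blood cells of the same liver keep the receptor. The samples were chosen by title, and 7 of the 38 deposited samples were LIRKO livers in the states compared. They were 4 refed mice (named here by title as Refed_553, Refed_558, Refed_564 and Refed_565) and 3 fasted mice (Fast_505, Fast_545 and Fast_550). Refed mice were killed 6 h after food was returned, and fasted mice had no food, for which the labels give both an overnight and a longer fast. All were males of 11 to 12 weeks of mixed FVB/N and C57Bl/6 strain. The same states were set beside them in 4 refed and 3 fasted LIRFKO mice, which lack both the receptor and the transcription factor FoxO1 in hepatocytes, in 3 refed and 3 fasted IR/FoxO1 floxed mice, and in 4 refed and 4 fasted IR floxed mice, the receptor-intact controls of the LIRKO line. Each sample was a separate mouse, and no mouse belonged to more than 1 group, so the 4 responses share no samples. Further IR floxed, LIRKO and LIRFKO mice, which were given glucose, also entered the statistical fit. They are part of no difference reported here, but they inform the shared spread and the dye and array terms.

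In liver, insulin released after a meal acts through its receptor on the kinase AKT, which keeps FoxO1 out of the nucleus and thereby lowers the genes of glucose output. The same hormone raises SREBP1c, the factor behind the fatty acid synthesis genes, and a meal also brings glucose, amino acids, bile acids and vitamins and ends the glucocorticoid and glucagon drive of fasting, signals that do not need the hepatocyte's insulin receptor. The comparison of refed with fasted LIRKO livers asks which feeding responses were seen when the receptor was absent.

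RNA was measured on 2-colour Agilent arrays, each dye channel was deposited as a sample, and the values are log2 intensities. A single probe, the one with the highest mean over all columns, represented each of 22485 genes, and values at the top of the scanner range were treated as saturated. Column medians lay between 5.723 and 5.779, so a level near 6 is close to the middle of all features. At such low levels the deposited values fall on coarse steps that many features share. This touches small differences such as those of Srebf1 and Slc39a10, and the fasted level of Ccr3. Pearson correlations among the 7 LIRKO columns ran from 0.983 to 0.995 across the 22485 genes. The LIRKO mice lay on 5 slides, and slides 186 and 188 held a refed and a fasted LIRKO mouse each, labelled with the same dye. Differences below are refed minus fasted from limma with dye as a term and array as a random block, ± SE, with p adjusted over all genes, and a gene rose or fell where that p was under 0.05. The fitted difference takes up the dye, so it can depart slightly from the difference of group means. Insr, the deleted gene, stood at 6.30, 6.501, 6.58 and 6.68 in refed LIRKO mice and at 6.30, 7.40 and 6.79 in fasted ones, below every IR floxed mouse (7.77 to 8.14 refed and 8.14 to 9.04 fasted). Where its probe lies relative to the deleted exons was not checked here. Hepatocyte markers were high in all 7 livers, with the mean of 10 markers between 14.41 and 15.15 refed and between 15.02 and 15.28 fasted, and none of them passed the test. Their lowest mean belonged to Refed_564, whose Alb stood at 14.10, with 15.87 to 15.94 in the other refed mice. Fasted IR/FoxO1 floxed mouse IRF.fl_Fast_523 went against its label, with Foxo1 at 6.77, inside the range of the LIRFKO mice (6.47 to 7.12) and far from the other 2 mice of its group (10.17 and 10.57). It enters the shared estimate of spread and the IR/FoxO1 floxed response, and the results it touches are given with and without it. In whole liver, fewer cells of a type and less RNA per cell cannot be told apart.

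Refeeding changed 416 genes in LIRKO liver, 1.85% of those tested. Of these 221 rose (0.983%) and 195 fell (0.867%), with a median change of 0.66 among the rises and −0.76 among the falls. Falls were the larger, since 58 of them exceeded 1 log2 unit and 9 exceeded 2, against 30 and 1 among the rises. The 4 refed mice did not overlap the 3 fasted mice for 208 of the rises and 187 of the falls, where 6.04% of all genes had every refed mouse above every fasted one and 6.06% the reverse. The metallothionein Mt2, the pyruvate dehydrogenase kinase Pdk4 and the glycogen-targeting subunit Ppp1r3g had the largest falls. The falls of any size also included 4 immediate early and 3 glucocorticoid-induced genes. Cyp26a1 and Lrat of retinoid metabolism, the bile acid exporters Slc51b and Abcb11 and the transferrin receptor Tfrc were among the rises. Gluconeogenic enzymes and the fatty acid and cholesterol synthesis genes had no member past the threshold in either direction.

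The count rests on few mice. It was 187 without Fast_505, 226 without Fast_545, 267 without Fast_550 and 270 without Refed_564 or Refed_565, and 44 rises and 48 falls passed in each of the 7 fits that left out 1 mouse. Among the 51 changed genes that the naming rule gave, 26 passed in all 7 fits, and a call that was lost is given with the highest adjusted p so reached. With slide as a fixed block the count was 307, and with only the 7 mice in the fit 170. Of the 51 named calls, 7 were lost with slide as a block and 25 with only the 7 mice in the fit. The losses with only the 7 mice are not given gene by gene below.

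**Figure D1:**
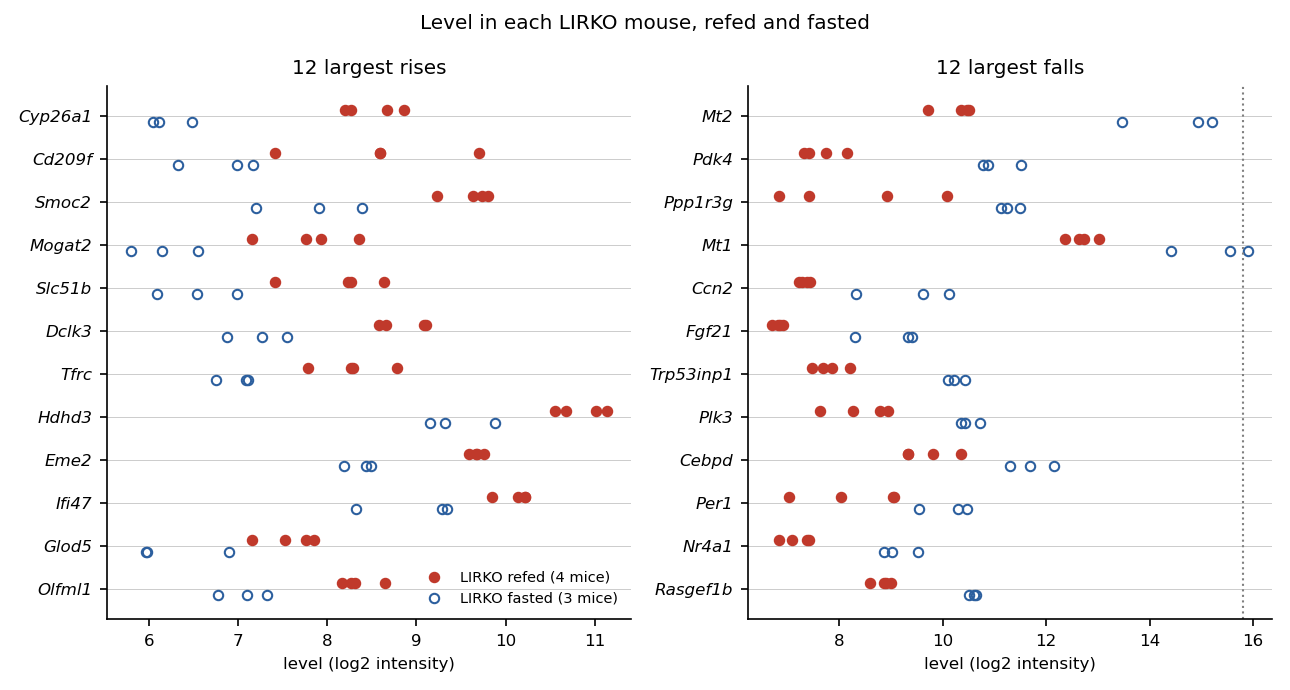
Log2 level of the 12 largest rises (left) and the 12 largest falls (right) of the LIRKO refeeding response, a point per mouse, filled for the 4 refed and open for the 3 fasted mice, with a dotted line at the saturation level. For all 24 genes the refed and fasted mice do not overlap, and Mt2 shows the widest gap, with refed mice between 9.72 and 10.5 and fasted mice between 13.5 and 15.2.

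Promoters of 5 genes whose level moved are shown, because each holds matches to a motif of a known transcription factor or factor family. They are the 250 bases upstream of the RefSeq start on GRCm38.p6, with matches in capitals, and the genes and motifs were picked with the values known. Cyp26a1 lies on the plus strand (chr19:37697558-37697807), and its capitals match 2 copies of AGTTCA in the same orientation with 5 bases between them, the direct repeat that retinoic acid receptors bind. Txnip is on the plus strand (chr3:96557707-96557956), and its capitals match 2 copies of CACGNG with 5 bases between them, the paired E box of the glucose-sensing factor ChREBP. Nr4a1 is also on the plus strand (chr15:101266596-101266845), with capitals on TGCGTCA, a motif of the CREB and AP-1 families. Btg2 is on the minus strand, with capitals on TGACGTCA, the palindrome that CREB binds (chr1:134079156-134079405). Mt2 is on the plus strand (chr8:94172368-94172617), with capitals on TGCACNC or TGCGCNC, the metal response element of the zinc sensor MTF1.
Cyp26a1: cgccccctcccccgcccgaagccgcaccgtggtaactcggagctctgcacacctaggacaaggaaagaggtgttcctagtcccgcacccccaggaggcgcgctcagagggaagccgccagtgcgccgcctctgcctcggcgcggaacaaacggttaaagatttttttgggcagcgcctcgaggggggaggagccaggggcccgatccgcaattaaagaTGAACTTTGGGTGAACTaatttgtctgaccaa
Txnip: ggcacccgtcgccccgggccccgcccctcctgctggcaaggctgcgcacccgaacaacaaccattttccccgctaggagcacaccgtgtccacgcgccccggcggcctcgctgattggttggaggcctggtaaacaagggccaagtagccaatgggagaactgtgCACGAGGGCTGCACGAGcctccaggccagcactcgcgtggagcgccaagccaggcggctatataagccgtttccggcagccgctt
Nr4a1: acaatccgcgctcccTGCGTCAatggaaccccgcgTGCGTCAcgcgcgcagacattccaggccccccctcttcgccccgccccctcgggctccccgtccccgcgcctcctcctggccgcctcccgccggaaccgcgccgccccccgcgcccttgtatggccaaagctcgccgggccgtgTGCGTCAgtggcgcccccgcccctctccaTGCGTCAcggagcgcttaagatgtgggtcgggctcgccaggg
Btg2: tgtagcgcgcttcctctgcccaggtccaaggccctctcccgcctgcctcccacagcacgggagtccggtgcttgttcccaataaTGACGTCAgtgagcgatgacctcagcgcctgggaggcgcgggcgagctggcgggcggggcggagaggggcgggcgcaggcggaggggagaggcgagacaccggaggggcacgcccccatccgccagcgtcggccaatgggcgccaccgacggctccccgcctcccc
Mt2: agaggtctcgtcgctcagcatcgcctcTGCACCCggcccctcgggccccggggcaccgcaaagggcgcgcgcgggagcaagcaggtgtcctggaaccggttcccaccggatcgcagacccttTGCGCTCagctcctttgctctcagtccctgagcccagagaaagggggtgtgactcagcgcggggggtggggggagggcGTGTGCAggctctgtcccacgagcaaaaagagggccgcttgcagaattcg
Both strands were searched in 27025 promoters of the same length, 1 per gene. The Cyp26a1 repeat was found in 0.0222% of them, the Txnip pair in 0.0518%, TGACGTCA in 1.62% and TGCGTCA in 1.78%, and no promoter other than that of Nr4a1 held 4 separate copies of the last. A metal response element core was in 21.3% of promoters, and 3 or more, as in Mt2, were in 0.773%. A match describes the sequence and shows no binding.

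No gene by which insulin is known to lower glucose output passed the test on refeeding in LIRKO liver. Igfbp1, a secreted binding protein and a classical FoxO1 target, was saturated in all 7 mice (15.87 to 15.999), so that no difference can be read from it. In IR floxed liver it stood at 10.85, 10.23, 7.75 and 12.31 refed and at 12.82, 13.66, 14.54 and 14.41 fasted. Pck1, the cytosolic enzyme that makes phosphoenolpyruvate, was at 14.43, 15.67, 15.87 and 15.88 in refed LIRKO mice and 14.96, 15.86 and 15.79 in fasted ones. Some of these values are saturated, the groups overlap, and the difference was −0.01 ± 0.48 (adjusted p = 0.997).

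G6pc, the catalytic subunit of glucose-6-phosphatase, stood at 12.45, 12.72, 13.26 and 12.92 in refed LIRKO mice and at 12.31, 13.35 and 12.85 in fasted ones. The groups interleave and the difference was 0.10 ± 0.48 (adjusted p = 0.974), with −2.08 ± 0.42 in IR floxed liver (adjusted p = 0.00461). The 2 responses differed by 2.18 ± 0.60, which did not pass over all genes (adjusted p = 0.174). Irs2, the insulin receptor substrate that FoxO1 raises in fasting, was at 11.25, 10.82, 11.31 and 10.68 refed and 10.96, 11.61 and 11.14 fasted, a change of −0.30 ± 0.30 in LIRKO (adjusted p = 0.806) and of −1.24 ± 0.26 in IR floxed liver (adjusted p = 0.0073). Ppargc1a, the coactivator of gluconeogenic transcription, ran from 8.34 to 10.3 in refed mice and from 9.90 to 10.6 in fasted mice, with a difference of −0.72 ± 0.43 (adjusted p = 0.569).

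Across the 14 measured gluconeogenesis enzymes and coactivators none passed in LIRKO, with a median difference of 0.03, while all genes tested had a median of −0.002. In IR floxed liver 7 of the 14 fell, with a median of −0.49, where 1.49% of all genes fell. None of the 14 had a difference between the 2 responses past the threshold. Gpt2, mitochondrial alanine aminotransferase, and Crtc2, a CREB coactivator, had the smallest p in LIRKO, with differences of −0.76 ± 0.23 and −0.54 ± 0.17 (adjusted p = 0.1 and 0.106). Of 22 insulin- and FoxO1-regulated genes, 2 fell (Pdk4 and Ccn2) and 1 rose, where 0.867% of all genes fell and 0.983% rose. In IR floxed liver 6 of the 22 fell and 1 rose, where 1.49% and 2.12% of all genes did. The LIRKO rise was that of Sesn3, a stress-induced inhibitor of TORC1 and a FoxO target. Sesn3 was at 7.37, 7.03, 7.04 and 7.16 refed and 6.41, 6.43 and 6.75 fasted, with no overlap and a rise of 0.68 ± 0.16 (adjusted p = 0.0218), lost without Fast_505, Fast_545, Refed_553 or Refed_565 (up to 0.154) and with slide as a block (0.0639).

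Foxo1 itself stood at 9.26, 9.42, 9.19 and 9.16 in refed LIRKO mice and at 10.32, 9.94 and 10.58 in fasted mice. Every refed mouse was lower than every fasted one, yet the difference of −0.97 ± 0.47 did not pass (adjusted p = 0.409). Without IR/FoxO1 floxed mouse IRF.fl_Fast_523, which widens the shared spread of this gene, it was −0.99 with an adjusted p of 0.00567. Among 21 insulin signalling genes the only call was Inpp5k, where 0.867% of all genes fell. Inpp5k, an inositol phosphatase that acts on the lipid messenger of PI3-kinase, fell to 7.33, 7.04, 7.33 and 7.26 in refed mice, against 7.89, 8.33 and 7.84 in fasted mice (−0.77 ± 0.12, adjusted p = 0.00041). Irs1 was 0.45 ± 0.25 higher without passing (adjusted p = 0.513), and Igfbp2 differed by 0.13 ± 0.26 (adjusted p = 0.933).

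**Figure D2:**
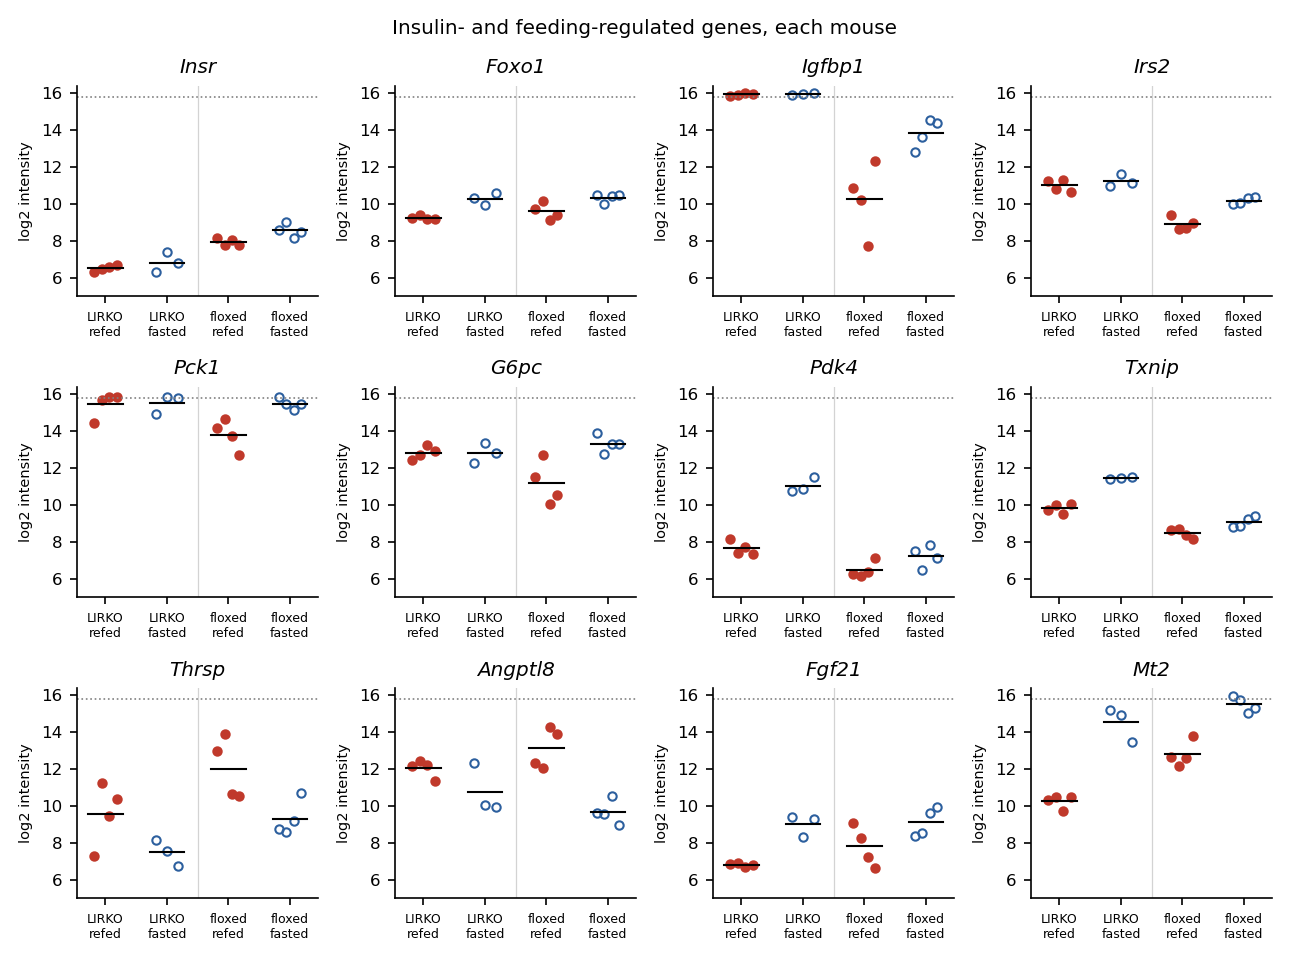
Log2 level of 12 insulin- and feeding-regulated genes in each mouse, filled for refed and open for fasted, in LIRKO (left of each panel) and IR floxed liver (right), with a line at each group mean and a dotted line at the saturation level. Igfbp1 is saturated in all LIRKO mice, G6pc and Irs2 overlap between states in LIRKO, and Pdk4, Txnip and Mt2 are lower in every refed than in every fasted LIRKO mouse.

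Pdk4, the kinase that shuts the pyruvate dehydrogenase complex during fasting, fell to 8.15, 7.42, 7.75 and 7.33 in refed LIRKO mice, against 10.77, 10.88 and 11.51 in fasted ones. No refed mouse came within 2 log2 units of a fasted one, and the change was −3.31 ± 0.35 (adjusted p = 2.07e-06), or 9.88-fold, with at most 0.000108 with a mouse left out. Its IR floxed levels were 6.28, 6.16, 6.35 and 7.15 refed and 7.49, 6.49, 7.82 and 7.15 fasted, so refed LIRKO mice stood above all refed controls. The complex has 2 further members that changed a little: Pdpr, the regulatory subunit of its phosphatase, differed by −0.49 ± 0.13 (adjusted p = 0.0425), and Pdp1, the catalytic phosphatase subunit, rose by 0.45 ± 0.11 (adjusted p = 0.02). Pdpr was lost without any mouse other than Refed_558 (up to 0.154) and with slide as a block (0.102), and Pdp1 without Fast_545 or Refed_565 (up to 0.154). The other 7 of the 10 listed genes did not pass. Over all genes 0.867% fell and 0.983% rose.

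Fatty acid oxidation genes ran lower in refed LIRKO mice as a group, with 29 of 30 below 0 and a median of −0.24. Of the 30, 2 fell past the threshold, where 0.867% of all genes fell. The median of the list was −0.41 in IR floxed liver and −0.43 in LIRFKO liver. Fgf21, the fasting hormone of liver, was at 6.86, 6.91, 6.69 and 6.83 refed and 9.40, 8.30 and 9.32 fasted. The refed mice lie close together, and the fall of −2.24 ± 0.57 (adjusted p = 0.0393) was lost without any mouse except Fast_545 (up to 0.202) and with slide as a block (0.0538). Pex11a, a peroxisome division protein under PPARalpha, was at 11.81, 11.67, 11.71 and 11.61 refed and 12.93, 13.09 and 12.64 fasted (−1.26 ± 0.29, adjusted p = 0.0202), lost without Fast_505, Fast_545, Refed_558 or Refed_565 (up to 0.0988). Cpt1a, the gate of mitochondrial fatty acid entry, differed by −0.25 ± 0.29 (adjusted p = 0.854). Of 16 hepatokines Fgf21 was the only call, where 0.867% of all genes fell. Of 20 TORC1 and AMPK genes Fnip1 and Slc38a2 fell and Sesn3 rose, where 0.867% of all genes fell and 0.983% rose. In IR floxed liver 5 of these 20 fell, where 1.49% of all genes did. Fnip1, a partner of the lysosomal nutrient sensor folliculin, was at 8.79, 8.86, 8.66 and 8.96 refed and 9.95, 9.66 and 9.81 fasted (−1.01 ± 0.14, adjusted p = 0.000245). Slc38a2, a system A amino acid transporter, was at 9.95, 10.25, 9.61 and 10.31 refed and 11.88, 11.44 and 11.52 fasted (−1.56 ± 0.31, adjusted p = 0.00714).

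Txnip, an arrestin-like brake on glucose uptake that glucose raises through ChREBP in many cells, stood at 9.71, 9.98, 9.53 and 10.08 in refed LIRKO mice and at 11.40, 11.45 and 11.55 in fasted ones. The groups are far apart and the fall was −1.70 ± 0.23 (adjusted p = 0.000173), while IR floxed liver gave −0.65 ± 0.21 without passing (adjusted p = 0.0826) and the difference between them was −1.05 ± 0.30 (adjusted p = 0.183). Of the 14 glucose sensing genes it was the only call, where 0.867% of all genes fell. Positive differences were seen for 11 of the 14, and the list's median was 0.23. Among 17 glycogen genes, against the same share over all genes, the call was Ppp1r3g, a subunit that brings protein phosphatase 1 to glycogen. Its refed values were spread widely, at 6.84, 10.09, 7.42 and 8.93, and the fasted values were 11.24, 11.14 and 11.50. The fall of −3.03 ± 0.78 (adjusted p = 0.0394) was lost without any mouse except Refed_558 (up to 0.137) and with slide as a block (0.0625).

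The widest fall of all was that of Mt2, a metallothionein that binds zinc and copper and whose promoter with 3 metal response element cores is printed above. Mt2 was at 10.35, 10.48, 9.72 and 10.51 in refed LIRKO mice and at 15.21, 14.94 and 13.47 in fasted ones, a change of −4.18 ± 0.42 (adjusted p = 9.5e-07), or 18.1-fold. Its neighbour in function, Mt1, was at 12.74, 12.64, 12.36 and 13.02 refed and 15.90, 15.56 and 14.41 fasted (−2.76 ± 0.55, adjusted p = 0.00682), with Fast_505 saturated, so that the size is a lower bound. Both fell without overlap, and the Mt2 response did not pass as different from that of IR floxed liver (−1.51 ± 0.52, adjusted p = 0.337), where 1 fasted mouse was saturated (15.96). Of the other 8 zinc genes Slc39a10, a zinc importer, rose to 6.30, 6.34, 6.28 and 6.24 refed, against 5.779, 5.55 and 5.58 fasted (0.58 ± 0.12, adjusted p = 0.00697, lost without Fast_545 at 0.0502). Among all genes tested 0.867% fell and 0.983% rose.

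Metallothioneins are also induced by glucocorticoids, the adrenal hormones of fasting. The glucocorticoid-induced genes ran low in refed mice, and a link to the metallothionein falls was not tested. Of 17, 16 had negative differences and the median was −0.93, against −0.002 for all genes, with 3 falls past the threshold, where 0.867% of all genes fell. For 11 of the 17 every refed mouse was below every fasted one, as for 6.06% of all genes. Fkbp5, a chaperone of the glucocorticoid receptor, was at 9.07, 9.38, 9.07 and 9.57 refed and 11.09, 10.40 and 10.69 fasted (−1.35 ± 0.27, adjusted p = 0.00682). Klf9, a transcription factor raised by the same hormones, was at 9.63, 10.01, 10.22 and 9.98 refed and 11.06, 11.14 and 10.77 fasted (−0.95 ± 0.22, adjusted p = 0.0172, lost without Fast_505, Fast_545 or Refed_553, up to 0.0907). Per1, a clock repressor, was at 7.03, 9.06, 8.03 and 9.04 refed and 10.46, 9.55 and 10.29 fasted (−1.95 ± 0.43, adjusted p = 0.0136, lost without Fast_505, Fast_550 or Refed_553, up to 0.0846). Refed_553 was lowest for Per1 and Klf9, and the mean of the list was 8.59 in it and 9.19 to 9.23 in the other refed mice. Ddit4, an inhibitor of TORC1, had the widest difference of the list but did not pass (−3.07 ± 0.84, adjusted p = 0.054). In IR floxed liver the list's median was −0.98 and in LIRFKO liver −0.86. Per1 was also the only call among 18 clock genes, whose median was −0.07, where 0.867% of all genes fell.

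Immediate early genes, which answer growth factor and stress signals within minutes, gave 4 falls and no rise among 25, where 0.867% of all genes fell and 0.983% rose, with a median of −0.39 and 22 negative differences. Nr4a1, an orphan nuclear receptor and the gene with the 4 TGCGTCA copies above, was at 7.41, 7.38, 7.08 and 6.84 refed and 9.52, 9.02 and 8.87 fasted. The gap is wider than the spread in either state, and the change was −1.95 ± 0.26 (adjusted p = 0.000106), or 3.86-fold. Klf6, a zinc finger factor, was at 8.41, 8.01, 7.93 and 8.10 refed and 9.40, 8.94 and 10.02 fasted (−1.40 ± 0.22, adjusted p = 0.000597). Btg2, an antiproliferative partner of the deadenylase complex, was at 6.55, 7.06, 6.55 and 6.85 refed and 8.71, 7.94 and 8.53 fasted (−1.62 ± 0.28, adjusted p = 0.00184). Jun, an AP-1 subunit, was at 7.93, 8.51, 8.33 and 8.06 refed and 9.39, 9.32 and 9.56 fasted, and its fall of −1.43 ± 0.38 (adjusted p = 0.0486) was lost without any of the 7 mice (up to 0.192) and with slide as a block (0.0538). Egr1 was spread widely among the fasted mice, at 13.29, 8.58 and 11.53, with refed mice at 10.50, 10.17, 9.14 and 10.28 and no call (adjusted p = 0.723). No member of the list passed in LIRFKO liver (median −0.03). Among the 25, 3 fell and 1 rose in IR floxed liver, where 1.49% of all genes fell and 2.12% rose, with a median of −0.16, and no difference between responses passed.

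**Figure D3:**
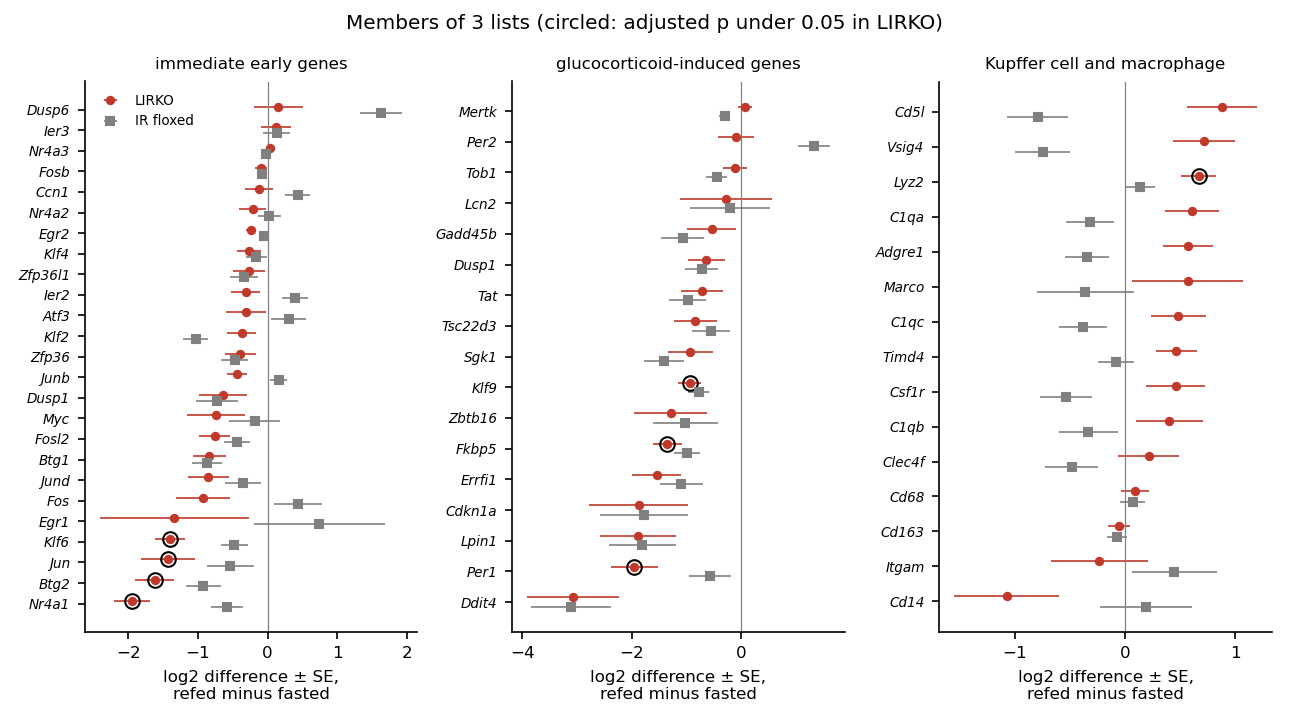
Log2 difference, refed minus fasted, with SE bars, for each measured member of 3 lists, red circles for LIRKO and grey squares for IR floxed liver, with a ring where the LIRKO change passed the threshold. Immediate early and glucocorticoid-induced genes lie mostly below 0 in LIRKO, and 12 of 15 macrophage markers lie above 0 with only Lyz2 ringed.

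Further large falls are given next. Cebpd, a transcription factor of the acute phase and adipogenesis, was at 9.33, 9.34, 9.82 and 10.36 refed and 12.15, 11.30 and 11.68 fasted (−2.11 ± 0.35, adjusted p = 0.00141), with −2.14 ± 0.31 in IR floxed liver. Rasgef1b, an exchange factor for Rap GTPases, was tight in both states, at 8.59, 8.91, 9.01 and 8.86 refed and 10.64, 10.51 and 10.61 fasted (−1.89 ± 0.34, adjusted p = 0.00257). Plk3, a stress-responsive polo-like kinase, was at 7.64, 8.27, 8.78 and 8.94 refed and 10.44, 10.71 and 10.37 fasted (−2.15 ± 0.37, adjusted p = 0.00162). All of these hold without any single mouse.
Trp53inp1, a p53-induced protein of autophagy, was at 7.47, 7.70, 8.20 and 7.87 refed and 10.23, 10.10 and 10.43 fasted (−2.22 ± 0.48, adjusted p = 0.0117, lost without Fast_545 or Fast_550, up to 0.0676). Ccn2, the connective tissue growth factor, was at 7.39, 7.43, 7.22 and 7.28 refed and 9.63, 8.33 and 10.12 fasted (−2.30 ± 0.45, adjusted p = 0.00522, lost without Fast_550 at 0.0623). The refed values of Ccn2 lie within 0.3 log2 units of each other, and the fasted values span more than 1.

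Fatty acid synthesis genes did not pass in LIRKO, where the 19 measured had a median of 0.05 and 11 positive differences. Srebf1, which encodes SREBP1c, was at 6.45, 6.12, 6.04 and 6.16 refed and 5.779, 5.62 and 5.94 fasted. Every refed mouse was higher, by a small margin, and the difference was 0.39 ± 0.24 (adjusted p = 0.574). Fasn, fatty acid synthase, was at 7.33, 7.21, 6.88 and 7.14 refed and 6.63, 6.49 and 7.24 fasted, with overlap (0.27 ± 0.31, adjusted p = 0.843). Thrsp, a lipogenic protein of feeding, was uneven among refed mice, at 7.28, 11.23, 9.45 and 10.38, with fasted mice at 8.15, 7.59 and 6.73. Refed Refed_553 sat among the fasted mice, the other refed mice were above all of them, and the difference of 2.02 ± 0.86 did not pass (adjusted p = 0.303). Angptl8, an insulin-raised inhibitor of lipoprotein lipase, was at 12.20, 12.47, 12.24 and 11.37 refed and 12.34, 10.05 and 9.97 fasted. Fasted Fast_505 was at the refed level, and the difference was 1.23 ± 0.56 (adjusted p = 0.362). In IR floxed liver Angptl8 rose by 3.40 ± 0.50 (adjusted p = 0.000229) and Thrsp by 2.92 ± 0.76 (adjusted p = 0.0266), with 5 of the 19 genes higher and 1 lower, where 2.12% of all genes rose. The smallest p of the list belonged to Gpam, which starts glycerolipid synthesis, and Acacb, the mitochondrial acetyl-CoA carboxylase, with differences of −0.86 ± 0.24 and −0.88 ± 0.31 (adjusted p = 0.0571 and 0.177). Gpam passed with slide as a block (0.0342), above the median level only (0.0345) and with an intensity trend (0.0449), and Acacb with only the 7 mice in the fit (0.0253). Of 18 cholesterol synthesis genes none passed in LIRKO, with a median of −0.17 and 13 negative differences. The median was 0.52 within slide 186 and −0.70 within slide 188. Of the 18, 1 rose in IR floxed liver, with a median of 0.74, where 2.12% of all genes rose, and in LIRFKO liver 9 rose, with a median of 1.67, where 0.987% did. The mean LIRKO level of the list ranged from 8.01 in Refed_558 to 9.14 in Refed_553, and from 8.38 to 9.23 in fasted mice, so the states overlap, and the difference from the LIRFKO response passed for none.

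Endoplasmic reticulum chaperone and secretion genes had positive differences for 21 of 25 in LIRKO with a median of 0.43, and no rise passed. The mean level of the list was 11.4, 10.9, 12.0 and 11.6 in refed mice and 11.5, 10.9 and 10.7 in fasted mice, so the states overlap. The median difference within slide 186 was 0.58 and within slide 188 −0.61. In IR floxed liver 20 of the 25 rose, where 2.12% of all genes rose, with a median of 1.09. The only LIRKO call was a fall, that of Herpud1, a membrane protein of protein degradation from the reticulum. Herpud1 was at 11.18, 11.59, 11.08 and 12.07 refed and 13.67, 12.07 and 12.89 fasted (−1.47 ± 0.35, adjusted p = 0.0233), lost without Fast_505, Fast_550, Refed_553 or Refed_564 (up to 0.222), and the difference was −0.0050 within slide 186 and −2.08 within slide 188. Among 20 ATF4 stress genes Cebpb and Ppp1r15a fell, where 0.867% of all genes fell, and the median was −0.01. In IR floxed liver 3 of these 20 fell and 2 rose, where 1.49% and 2.12% of all genes did. Cebpb, a partner factor of gluconeogenic and acute phase genes, was at 12.18, 12.07, 11.83 and 11.94 refed and 13.26, 12.70 and 12.70 fasted (−0.9985 ± 0.22, adjusted p = 0.0143, lost without Fast_505 or Fast_550, up to 0.1). Ppp1r15a, the phosphatase subunit that reverses eIF2alpha phosphorylation, changed by −0.63 ± 0.15 (adjusted p = 0.0215, lost without any mouse but Fast_505 and Refed_564, up to 0.176). None of 14 heat shock genes (median 0.22) or of 24 ribosome biogenesis genes (median 0.10) passed in LIRKO, and 2 and 8 rose in IR floxed liver, where 2.12% of all genes rose. No gene of these 4 lists other than Herpud1 had a called difference between the LIRKO and IR floxed responses.

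Among the rises the widest was Cyp26a1, the cytochrome that degrades retinoic acid and whose promoter repeat is printed above. It was at 8.20, 8.86, 8.67 and 8.26 in refed mice and 6.12, 6.49 and 6.05 in fasted ones. All refed mice were clearly higher, by 2.25 ± 0.42 (adjusted p = 0.00375), or 4.77-fold, and IR floxed liver rose by 2.40 ± 0.37 (adjusted p = 0.000382). Lrat, which esterifies retinol for storage, was at 7.77, 8.02, 7.59 and 7.66 refed and 6.65, 6.63 and 6.67 fasted (1.05 ± 0.16, adjusted p = 0.000346). Cyp26a1 and Lrat were the 2 calls among 15 retinoid genes, where 0.983% of all genes rose. Of the 15, 1 rose in IR floxed and 4 in LIRFKO liver, where 2.12% and 0.987% of all genes did. Lrat is also a marker of stellate cells, and of the 11 stellate and fibroblast markers no other passed, with a median of −0.15 and mean levels of 7.33 to 7.66 refed and 7.48 to 7.58 fasted.

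Slc51b, a subunit of the basolateral exporter of bile acids, was at 8.27, 8.63, 7.42 and 8.24 refed and 6.55, 6.09 and 6.99 fasted (1.55 ± 0.26, adjusted p = 0.00144). Abcb11, the canalicular bile salt export pump, was at 12.70, 12.32, 12.15 and 12.42 refed and 11.89, 11.56 and 11.75 fasted (0.78 ± 0.19, adjusted p = 0.0292), lost without any mouse but Refed_558 and Refed_564 (up to 0.119). Abcb11 was the only call among 19 bile acid genes with a median of 0.02, where 0.983% of all genes rose. Both exporters had refed mice above fasted mice without exception.
Mogat2, which makes diacylglycerol from monoacylglycerol, was at 8.36, 7.76, 7.93 and 7.16 refed and 6.15, 5.80 and 6.55 fasted (1.62 ± 0.29, adjusted p = 0.0027). Tfrc, the transferrin receptor for iron uptake, was at 8.26, 8.78, 7.79 and 8.29 refed and 7.09, 6.75 and 7.12 fasted (1.32 ± 0.26, adjusted p = 0.00656). Eme2, a subunit of a structure-selective DNA endonuclease, was at 9.67, 9.76, 9.68 and 9.59 refed and 8.19, 8.50 and 8.43 fasted (1.31 ± 0.18, adjusted p = 0.000157). None of these 3 lost its call without any single mouse.

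The remaining large rises included Smoc2, a secreted matricellular protein, at 9.74, 9.23, 9.81 and 9.64 refed and 8.39, 7.20 and 7.91 fasted (1.63 ± 0.35, adjusted p = 0.0127, lost without Fast_545 at 0.094). Cd209f, a C-type lectin of the DC-SIGN family, was at 8.59, 7.42, 9.70 and 8.59 refed and 6.33, 7.17 and 6.99 fasted (1.68 ± 0.35, adjusted p = 0.00816, lost without Fast_505 at 0.0846). Ifi47, an interferon-induced GTPase, was at 10.22, 9.84, 10.22 and 10.14 refed and 8.32, 9.34 and 9.28 fasted (1.29 ± 0.27, adjusted p = 0.0106, lost without Fast_505 at 0.135), while none of the 19 listed interferon response genes passed. For Cd209f and Ifi47 Fast_505 was the lowest of all 7. Hdhd3, a haloacid dehalogenase-like protein, and Olfml1, an olfactomedin-like protein, rose by 1.31 ± 0.24 and 1.21 ± 0.19 (adjusted p = 0.00307 and 0.00048), and Dclk3, a doublecortin-like kinase, by 1.49 ± 0.39 (adjusted p = 0.0425), lost without any mouse but Fast_505 (up to 0.175) and with slide as a block (0.094). Prom1 was the only call in the female-biased list of 14, where 0.983% of all genes rose. It was at 7.28, 8.86, 6.71 and 7.39 refed and 6.41, 6.39 and 6.45 fasted (1.08 ± 0.26, adjusted p = 0.0292, lost without any mouse but Refed_553 and Refed_564, up to 0.148). No member of the male-biased, growth hormone, xenobiotic, Nrf2, acute phase, amino acid or cell cycle lists passed in LIRKO.

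Markers of other cell types were read in the same fit, where 0.983% of all genes rose and 0.867% fell in LIRKO. Of 15 Kupffer cell and macrophage markers 12 had positive differences, and the median was 0.47 in LIRKO, against −0.33 in IR floxed liver. The mean level of the list was 9.06 to 9.14 in refed LIRKO mice and 8.61 to 8.84 in fasted ones, so every refed mouse was above every fasted mouse. Lyz2, lysozyme of myeloid cells, was the only member to pass, at 7.21, 6.69, 6.63 and 6.92 refed and 6.39, 5.93 and 6.27 fasted (0.67 ± 0.16, adjusted p = 0.0211, lost without Fast_545, Refed_553 or Refed_565, up to 0.137). Vsig4 and Cd5l, both made by resident Kupffer cells, differed by 0.72 ± 0.28 and 0.88 ± 0.32 without passing (adjusted p = 0.247 and 0.183), and Cd14 by −1.07 ± 0.48 (adjusted p = 0.334). Cd163 and Cd68 stood near 6 in all mice, between 5.64 and 6.33. Several genes that rose with refeeding are known from myeloid or other immune cells, among them Siglec1, Msr1, Aif1 and Cd209f, of which Siglec1, Msr1 and Aif1 were picked after their values were seen (0.48 ± 0.13, 0.61 ± 0.14 and 1.05 ± 0.27, adjusted p = 0.0473, 0.0148 and 0.0398). Siglec1 was lost without any of the 7 mice (up to 0.226), Aif1 without any but Fast_550 (up to 0.312) and Msr1 without Fast_505 or Refed_558 (up to 0.136), and Siglec1 and Aif1 also with slide as a block (0.095 and 0.106). The part of macrophage RNA in these rises was not tested. None of the neutrophil, T and NK, B and plasma, endothelial, cholangiocyte, erythroid, pancreatic or muscle markers passed. Of 6 adipocyte markers Plin4, a lipid droplet protein also made by liver, fell to 7.19, 6.80, 7.12 and 6.94 refed, against 8.82, 7.76 and 8.49 fasted (−1.39 ± 0.37, adjusted p = 0.0485), a call lost without any of the 7 mice (up to 0.173) and with slide as a block (0.0708).

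**Figure D4:**
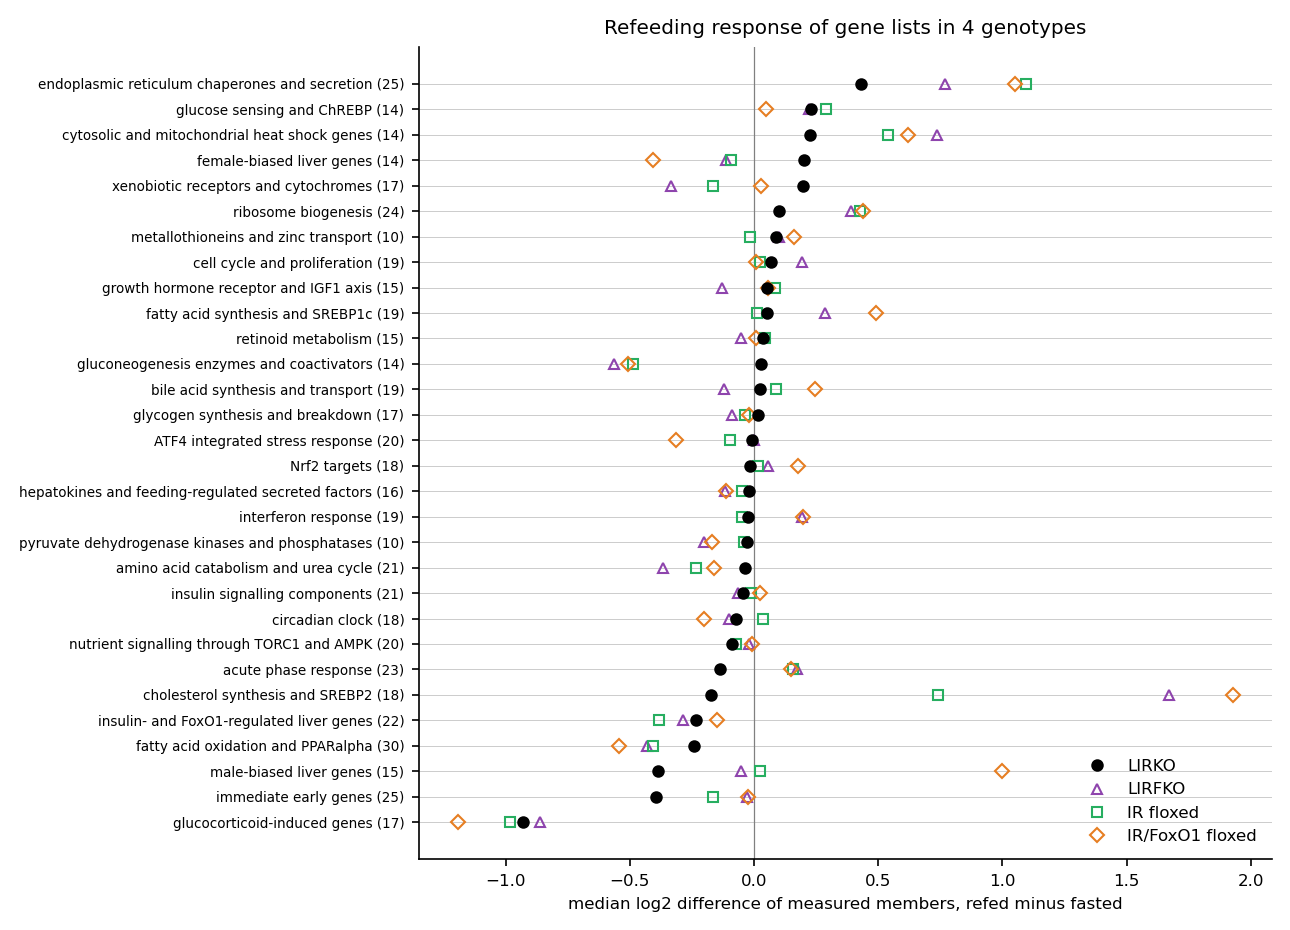
Median log2 difference, refed minus fasted, of the measured members of 30 pathway lists (number measured in brackets), filled circles for LIRKO and open symbols for LIRFKO, IR floxed and IR/FoxO1 floxed liver. Glucocorticoid-induced genes lie between −0.86 and −1.19 in all 4 genotypes, the gluconeogenesis median is near 0 only in LIRKO, and the cholesterol synthesis median is negative only in LIRKO.

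The calls of LIRKO liver were set beside those of the other genotypes. IR floxed liver had 811 calls (3.61%), with 2.12% of genes rising and 1.49% falling. LIRFKO liver had 404 (1.8%), with 0.987% rising and 0.809% falling, and IR/FoxO1 floxed liver had 794 (3.53%), with 2.01% rising and 1.52% falling. Without IRF.fl_Fast_523 its 453 rises and 341 falls became 240 and 220. LIRKO and IR floxed shared 34 rises, which is 15.4% of the LIRKO and 7.13% of the IR floxed rises, and 67 falls, which is 34.4% and 20.1%. With LIRFKO 31 rises were shared (14.03% of LIRKO and 13.96% of LIRFKO rises) and 57 falls (29.2% of LIRKO and 31.3% of LIRFKO falls). With IR/FoxO1 floxed 48 rises and 70 falls were shared, and 34 and 59 without its mouse IRF.fl_Fast_523. No gene called in LIRKO was called in the opposite direction in any of the 3 other genotypes. Over the 195 LIRKO falls the median difference was −0.76 in LIRKO and −0.44 in IR floxed liver, with 176 of the same sign, and over the 221 rises it was 0.66 and 0.18, with 180 of the same sign. The LIRKO values in this comparison are those that chose the genes.

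All 4 genotypes shared 35 falls and 12 rises, or 34 and 8 without mouse IRF.fl_Fast_523. The examples named here were picked after their values were seen, apart from those in the lists. Mt2, Cebpd, Rasgef1b, Fkbp5, Fnip1, Inpp5k and Plin4 are among the falls. So are Pim3, a serine kinase (−1.74 ± 0.25 in LIRKO, −1.32 ± 0.22 in IR floxed), together with Map1lc3b, an LC3 protein of the autophagosome (−0.84 ± 0.19 and −0.99 ± 0.17), Atg2a, a lipid transfer protein (−0.9969 ± 0.17 and −0.60 ± 0.15), and Calcoco1, an autophagy receptor (−0.73 ± 0.17 and −0.59 ± 0.15). Nfkbia, the NF-kappaB inhibitor, and Maf1, the repressor of RNA polymerase III, also fell in all 4, by −0.68 ± 0.18 and −0.76 ± 0.16 in LIRKO. Tfrc, Slc39a10, Umps, an enzyme of pyrimidine synthesis (0.95 ± 0.12 in LIRKO and 0.51 ± 0.10 in IR floxed), and Ostc, a subunit of the oligosaccharyltransferase complex (0.83 ± 0.20 and 1.17 ± 0.17), are among the rises. With a mouse left out, Pim3, Atg2a and Umps kept their LIRKO call in all 7 fits. It was lost in 7 fits for Nfkbia (up to 0.274), 4 for Calcoco1 (0.0717), 4 for Ostc (0.173), 3 for Map1lc3b (0.108) and 1 for Maf1 (0.0862, without Fast_545), and with slide as a block for Nfkbia (0.0982) and Ostc (0.0609). In LIRKO and no other genotype 149 rises and 94 falls were called, 153 and 103 without mouse IRF.fl_Fast_523, and 13 and 8 of the 149 and 94 also had a called difference from the IR floxed response. The others are not shown to differ from IR floxed liver.

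The difference of responses, LIRKO minus IR floxed, was called for 37 genes, 22 more positive (0.0978%) and 15 more negative (0.0667%) in LIRKO. Some of these genes passed in LIRKO and not in the controls, and others in the controls and not in LIRKO. Ccr3, an eotaxin receptor, moved in LIRKO, at 6.86, 7.23, 7.14 and 7.12 in refed LIRKO mice and 5.91, 6.01 and 5.79 in fasted ones, with all IR floxed mice between 5.89 and 6.27. Its rise was 1.18 ± 0.14 (adjusted p = 1.96e-05) and the difference 1.24 ± 0.18 (adjusted p = 0.00172), which held in all 15 fits with a mouse left out. It was the only named difference to do so, although its fasted level is close to the middle of all features.

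Pdk4 fell further in LIRKO than in the controls, by −2.35 ± 0.44 (adjusted p = 0.0221), lost in 5 of the 15 fits (up to 0.0701, without fasted LIRKO Fast_505). Tnfrsf12a, the receptor of the cytokine TWEAK, was at 9.64, 8.67, 9.36 and 9.34 refed and 10.54, 10.13 and 11.10 fasted in LIRKO, with IR floxed mice from 8.71 to 8.99 refed and from 8.11 to 8.72 fasted. It fell in LIRKO (−1.37 ± 0.24, adjusted p = 0.00164), and the difference was −1.70 ± 0.30 (adjusted p = 0.0163, lost in 2 of 15 fits, up to 0.0984). Herpud1, described above, had a difference of −2.29 ± 0.44 (adjusted p = 0.0302), lost in 10 of the 15 (up to 0.388, without Fast_505).

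Glod5, a glyoxalase-domain protein, was at 7.77, 7.85, 7.52 and 7.16 refed and 6.90, 5.98 and 5.97 fasted in LIRKO, and between 5.45 and 5.66 in all IR floxed mice (difference 1.25 ± 0.25, adjusted p = 0.0357). Its fasted and refed group means in the other genotypes were 5.52 to 5.77, close to the middle of all features. A change from a low level could be missed there. Mmp11, a matrix metalloproteinase, was at 8.54, 7.44, 8.05 and 7.68 refed and 6.67, 7.03 and 6.96 fasted (difference 1.38 ± 0.26, adjusted p = 0.0221). Slc17a4, an anion transporter, was at 8.89, 9.14, 8.50 and 8.83 refed and 7.39, 8.13 and 8.32 fasted (difference 1.32 ± 0.28, adjusted p = 0.044). All of them rose in LIRKO and passed in no other genotype, by 1.23 ± 0.20, 1.04 ± 0.20 and 1.07 ± 0.22 (adjusted p = 0.000824, 0.00602 and 0.00843), and the last 2 rises were lost without Fast_505 (0.0726 and 0.139). Their differences from IR floxed were lost in 11, 7 and 10 of the 15 fits (up to 0.088, 0.34 and 0.561).

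Flvcr2, a transporter of choline and haem, shows the other pattern. It was at 8.38, 8.20, 7.72 and 8.11 refed and 8.01, 8.54 and 8.35 fasted in LIRKO, with overlap, while IR floxed mice lay between 6.63 and 7.34 refed and between 8.23 and 8.81 fasted. The control value was −1.60 ± 0.15 (adjusted p = 1e-06), LIRKO did not pass (−0.15 ± 0.17, adjusted p = 0.845), and the difference was 1.45 ± 0.22 (adjusted p = 0.00214). Fbxo21, a substrate receptor of a ubiquitin ligase, was at 11.87, 11.96, 12.28 and 12.10 refed and 11.29, 11.82 and 11.96 fasted in LIRKO, against 10.0 to 11.2 refed and 11.8 to 12.5 fasted in IR floxed mice (difference 1.82 ± 0.27, adjusted p = 0.00214). Each lost its call in 1 of the 15 fits, without Fast_505 (0.0701).

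In the opposite direction, 3 genes rose in the controls and not in LIRKO. Osgin1, an oxidative stress-induced growth inhibitor and Nrf2 target, was already at 13.81, 12.62 and 12.38 in fasted LIRKO mice and at 14.14, 13.24, 12.18 and 12.93 refed, while IR floxed mice ran from 12.7 to 14.1 refed and from 9.89 to 10.8 fasted (difference −2.82 ± 0.58, adjusted p = 0.0394). Cyp2c70, the hydroxylase that makes muricholic bile acids in mice, was at 10.80, 10.36, 10.08 and 10.91 refed and 11.93, 10.57 and 9.91 fasted in LIRKO, against 13.79 to 14.98 refed and 10.1 to 12.7 fasted in IR floxed mice (difference −2.98 ± 0.63, adjusted p = 0.044). Nat8f5, of the N-acetyltransferase 8 family, was at 5.69 to 5.95 refed and 5.79 to 6.21 fasted in LIRKO, and at 9.003 to 10.88 refed and 7.83 to 8.25 fasted in IR floxed mice (difference −2.19 ± 0.37, adjusted p = 0.0128). Refed LIRKO levels overlapped those of refed controls for Osgin1 and lay below all of them for Cyp2c70 and Nat8f5. In LIRKO, Nat8f5 stood close to the middle of all features in both states, so a change from a low level could be missed there. The calls were lost in 10, 13 and 3 of the 15 fits (up to 0.541, 0.55 and 0.205, without Fast_505).

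**Figure D5:**
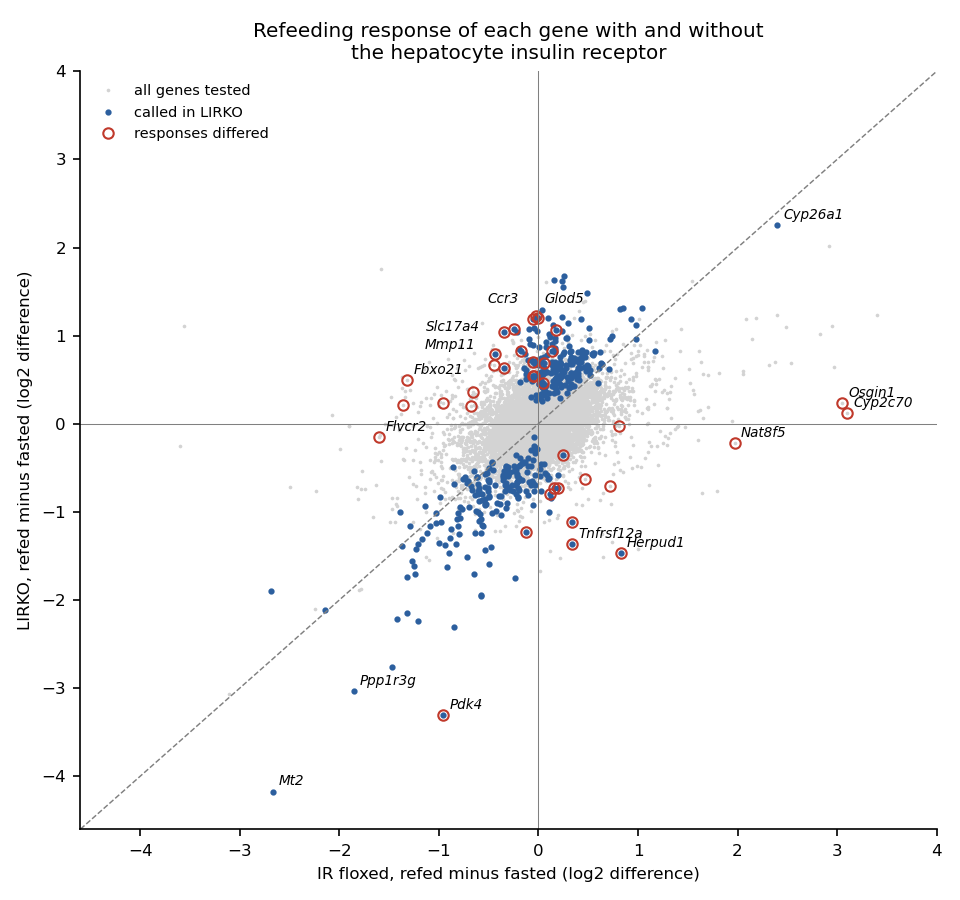
Log2 difference, refed minus fasted, of each of 22485 genes in LIRKO (vertical) against IR floxed liver (horizontal), with the 416 genes called in LIRKO in blue, the 37 genes with a called difference between responses ringed in red, and a dashed line of equal response. Cyp26a1 lies near the line, Pdk4, Herpud1 and, with no called difference, Mt2 lie below it, and Flvcr2 and Fbxo21 are near 0 or above it in LIRKO while falling in IR floxed liver.

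Against LIRFKO liver, which lacks FoxO1 as well, 5 genes differed, 3 more positive (0.0133%) and 2 more negative (0.00889%) in LIRKO, where 1319 genes had an unadjusted p under 0.05. The FoxO1 deletion and the mouse line cannot be told apart in this contrast. Ccr3 differed again (1.33 ± 0.18, adjusted p = 0.000744) in all 14 fits with a mouse left out. Tnfrsf12a had a difference of −1.68 ± 0.31 (adjusted p = 0.049, lost in 11 of 14 fits, up to 0.306), with LIRFKO mice from 8.49 to 9.01 refed and from 8.12 to 8.71 fasted. Sorbs3, a vinexin adaptor of cell adhesion, fell in LIRKO to 6.28, 6.45, 6.399 and 6.48 refed, against 7.78, 7.70 and 7.53 fasted (−1.29 ± 0.12, adjusted p = 4.01e-07), the smallest p of the genes that the naming rule gave. In LIRFKO it ran from 6.05 to 6.41 refed and from 6.39 to 6.71 fasted, and the difference was −1.001 ± 0.16 (adjusted p = 0.00656, lost in 2 of 14 fits, up to 0.102). The other 2 genes, Dusp14 and Epdr1, have low levels and were outside the rule for naming, with differences of 0.75 ± 0.10 and 0.75 ± 0.14 (adjusted p = 0.000744 and 0.049). Both also passed in the LIRKO response itself (adjusted p = 3.87e-07 and 0.000532), in all 7 fits with a LIRKO mouse left out. For Pdk4 the difference from LIRFKO was −1.95 ± 0.45 and did not pass (adjusted p = 0.204).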

How the data were processed

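Liver RNA was measured on Agilent 2-colour arrays, with 20 arrays on 5 slides. The deposited values are log2 intensities made by the authors, with R 3.1.0 and limma 3.20.1 named per the submitters' processing notes, and how background and normalization were handled is not given in the sources used here. Of 45220 features, 12194 carry no gene symbol and were tested apart. Array number and dye limit the precision, and values at the top of the range were treated as saturated.

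From these values, 1 probe per symbol was kept and 37 samples in 11 groups, those given glucose included, were fitted with limma 3.58.1 and statmod 1.5.0 in R 4.3.3. The model had group means, a dye term and a random block for array (estimated correlation 0.358; residual degrees of freedom 25). P-values were adjusted by the Benjamini-Hochberg method over 22485 genes, with a threshold of 0.05. The remaining sample had conflicting labels and was left out. The fit was tested on simulated data. The members and gene lists were chosen with earlier results of these data known. Genes named were the 12 largest rises and falls without overlap between states and with a mean level above the median over genes, clone names passed over, every list member past the threshold (otherwise the 2 of smallest p), key insulin and feeding genes, and the 6 largest differences of responses in each direction. Others are said to be picked after their values were seen. Alternatives were slide as a block, no dye or array term, only the samples compared, the mean of probes, a level filter, renewed normalization, centring, an intensity trend, and leaving out each mouse.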

Additional observations from a re-analysis of the deposited data

Results flagged for a closer look

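Among 155 sets of 4 refed LIRKO values tested for a mouse far from the others, 8 stood apart by Dixon's criterion, which chance meets in about 1 of 20 groups. Gpt2 was 10.71 in mouse Refed_553 (11.45 to 11.51 in the others) and Pck1 was 14.43 in the same mouse (15.67 to 15.88). mouse Refed_553 also had the low mean of glucocorticoid-induced genes, 8.59 (9.19 to 9.23). In mouse Refed_564 Mcm3 was 8.18 (9.14 to 9.26), Clec4g 10.97 (10.75 to 10.77), the mean of the metallothionein and zinc list 8.78 (9.04 to 9.09) and the mean of the interferon list 8.53 (8.19 to 8.23). Acta1 was 5.89 in mouse Refed_565 (5.42 to 5.49).

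Named genes whose response differed from that of IR floxed liver by the test of the difference in limma were Fbxo21 (1.82), Flvcr2 (1.45), Mmp11 (1.38), Slc17a4 (1.32), Glod5 (1.25) and Ccr3 (1.24) on the positive side. On the negative side they were Cyp2c70 (−2.98), Osgin1 (−2.82), Pdk4 (−2.35), Herpud1 (−2.29), Nat8f5 (−2.19) and Tnfrsf12a (−1.70). Against LIRFKO liver they were Ccr3 (1.33), Tnfrsf12a (−1.68) and Sorbs3 (−1.001).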

How the results depend on the processing

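The count of LIRKO calls, 416 as reported, was 307 to 485 under the other settings, apart from 170 with only the 7 mice in the fit, and 187 to 301 with a LIRKO mouse left out. The 37 differences from IR floxed liver became 16 with slide as a block, 5 without dye and array terms and 2 with only the samples compared, and 3 to 66 with a mouse left out. They were 3 without Fast_505, 17, 11 and 14 without Refed_553, Refed_558 and Refed_564, 4, 13, 16 and 24 without IR.fl_Fast_486, IR.fl_Fast_542, IR.fl_Fast_491 and IR.fl_Fast_552, and 7, 21, 6 and 66 without IR.fl_Refed_506, IR.fl_Refed_508, IR.fl_Refed_562 and IR.fl_Refed_566. The 5 differences from LIRFKO became 2 without dye and array terms, 0 with only the samples compared (limma, with 1331 at an unadjusted p under 0.05), 3 above the median level, 11 with an intensity trend and 3 without mouse IRF.fl_Fast_523, and 2 to 12 with a mouse left out. They were 3 without LIRKO Fast_505, Refed_558 or Refed_564, 12 without Fast_550, 2 and 3 without fasted LIRFKO IRF.KO_Fast_518 and IRF.KO_Fast_525, and 3 without refed IRF.KO_Refed_469 or IRF.KO_Refed_478. No named gene past the threshold changed sign. Among genes that had not passed, the sign turned for Cpa1 without dye and array terms (−0.33) and with only the samples compared (−0.40), where it also turned for Igfbp1 (0.0030), Pck1 (0.0700), Cyp2c70 (−0.39) and Osgin1 (−0.0165). Pck1 also turned with slide as a block (0.16) and with centring (0.00062), and Cyp2c70 without dye and array terms (−0.27). With a mouse left out the ranges were −0.0726 to 0.62 for Cpb1, −0.77 to 0.0804 for Igfbp1, −0.0632 to 0.27 for Igfbp2, −0.42 to 0.34 for Pck1, −0.35 to 0.41 for G6pc, −0.36 to 0.0029 for Flvcr2, −0.46 to 0.80 for Cyp2c70, −0.0572 to 0.78 for Osgin1 and −0.33 to 0.0102 for Nat8f5. The causes were not tested. No paired analysis was possible because each mouse number occurs in 1 group only. Saturation hides differences in Igfbp1 and partly in Pck1 and Mt1, and 3 or 4 mice a state leave moderate changes below the threshold.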
